A study of Mus musculus with 8 samples.

Results

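The genes described here encode enzymes that make and recycle the phospholipids and sphingolipids of cell membranes. The list was set by function and names 38 genes in 6 branches. Of these, 31 had at least 1 probe set annotated with that gene symbol alone, 71 probe sets in all, among 12393 genes so measured in the series. Each gene is represented by its brightest probe set over all arrays. The other 7 (Pcyt1b, Pisd, Cds1, Isyna1, Crls1, Kdsr and Cers6) were not analysed here.

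Glycerophospholipids are built along diverging routes that share diacylglycerol and phosphatidate as precursors. Activated choline or ethanolamine is joined to diacylglycerol in the Kennedy pathway, whereas phosphatidylinositol and the mitochondrial lipid cardiolipin are made from CDP-diacylglycerol. Sphingolipids begin with the joining of serine and palmitoyl-CoA in the endoplasmic reticulum (ER), which leads to ceramide and then to glucosylceramide or sphingomyelin. XBP1 is a transcription factor of the unfolded protein response, made in its active form (sXBP1) when IRE1 splices its messenger RNA, and in mouse fibroblasts its forced expression is known to raise phosphatidylcholine synthesis and ER membrane. Fat cells need phospholipids as well for the single layer that covers each lipid droplet.

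The samples were cultured mouse adipocytes infected with adenovirus, 4 with virus carrying mouse sXBP1 and 4 with virus carrying green fluorescent protein (GFP). All came from a Swiss-strain preadipocyte line, named F442A in one label field and 3T3L1 in another. Both groups were infected as mature adipocytes on day 6 to 8 of differentiation and collected 4 to 6 days afterwards, and the promoter of the virus is not given in the labels. Total RNA was measured on 1 Affymetrix array per sample, as a linear signal per probe set, and because the labels do not name separate cultures, p-values measure a spread between samples that may be technical.

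Median array signal was 117 to 139.6 on sXBP1 arrays and 135 to 154 on GFP arrays. The brightest of 4 Xbp1 probe sets had a log2 change of 0.07 ± 0.04 (± standard error, limma adjusted p = 0.271), or of 0.21 with median centring of the arrays (limma adjusted p = 0.0307), and since it was not analysed here whether these probe sets can read the viral transcript, they do not check the labels. All 8 genes of a list of known XBP1 targets were higher in sXBP1 cells. That direction was called for 12.9% of all genes and 19.7% of genes present on every array. The median log2 change of the 8 was 0.72. The smallest was 0.16 ± 0.04 for Edem1 (limma adjusted p = 0.0256), whose deposited signals overlapped. The largest was 2.39 ± 0.10 for the ER chaperone cofactor Sdf2l1 (limma adjusted p = 6.1e-07). Adipocyte markers were detected on the arrays of both groups, with 9 of 10 called present on all 8 arrays. Of those 10 markers 8 were lower in sXBP1 cells, and their summed signal was 53263 to 63954 on sXBP1 arrays against 66914 to 72854 on GFP arrays. The summed signal of 9 macrophage and leukocyte markers was 2167 to 4272 on sXBP1 arrays against 820.0 to 975 on GFP arrays and 4 of the 9 were higher, although the leukocyte markers Ptprc and Itgam were called present on no array. The brightest of the 9 were Cd14 (mean 1437 on sXBP1 arrays, 221 on GFP arrays) and Cd68 (1062.5 against 307), both higher. Adgre1, called present on all 8 arrays, did not pass (log2 change -0.12, limma adjusted p = 0.667). The 5 smooth muscle markers, 1 of them lower, summed to 1066 to 1326 on sXBP1 arrays against 1908 to 2399 on GFP arrays, and Tagln and Cnn1 were called present on no array. The lower marker was Acta2, the brightest of the 5 (mean 686 on sXBP1 arrays, 1514 on GFP arrays), and Des did not pass. The 9 fibroblast and preadipocyte markers, 4 of them lower, summed to 67467 to 69115 on sXBP1 arrays against 69089 to 77529 on GFP arrays. The 6 endothelial markers, 0 of them called, summed to 353 to 458 on sXBP1 arrays against 266 to 396 on GFP arrays, and Pecam1, Kdr and Vwf were called present on no array. For RNA integrity, the ratio of the Gapdh 3' probe set to its 5' probe set was 0.775 to 0.802 on sXBP1 arrays against 0.810 to 0.820 on GFP arrays, and these groups did not overlap. The same ratio for beta-actin was 1.333 to 1.438 on sXBP1 arrays against 1.404 to 1.444 on GFP arrays, which overlapped. The adipocyte, macrophage and smooth muscle sums and the Gapdh ratio separated the groups, whereas the fibroblast and endothelial sums overlapped. Each sum weighs its brightest markers most. The part of any of these measures in the results below was not tested. In such bulk samples, fewer cells of a type and less RNA per cell cannot be told apart.

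Of the 31 measured genes, 9 were higher in sXBP1 cells and 4 were lower, while 18 were not called (limma with Benjamini-Hochberg adjustment over all 22626 probe sets, threshold 0.05). The called share was 41.9%, against 27.3% of all genes. However, 30 of the 31 were called present on all 8 arrays, and among the 7203 genes so detected 42.3% were called, so the share of called members was near that background. Among all genes 12.9% were higher and 14.4% lower, and among the genes present on every array 19.7% were higher and 22.6% lower. The 2 groups of arrays did not overlap on normalized values for 16 of the 31 genes (51.6%), against 30.2% of all genes. Among genes present on every array that share was 53.3% for the members and 46.0% for all. The median log2 change was -0.04 for the members (0.02 with median centring of the arrays) and -0.01 for all genes, and the members ranged between -0.64 and 0.99. Scaling moved the split of calls: 7 members were higher and 5 lower with signals as deposited, and 9 were higher and 3 lower with median centring. Over all 22626 probe sets the split moved too, with 2601 higher and 2942 lower after quantile normalization, 1600 and 3195 as deposited, and 3379 and 2191 with median centring.

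The branches differed in their counts, though each held few genes. Among the 5 measured of 8 listed genes of the CDP-diacylglycerol, inositol and cardiolipin branch 4 were higher and 0 lower, with a median change of 0.37. Its genes Cds1, Isyna1 and Crls1 were not analysed. Of 8 choline and ethanolamine genes 1 was higher and 1 lower (median -0.15), and of 2 phosphatidylserine genes 0 were higher and 1 lower (median -0.10). Of 4 lysophospholipid acyltransferase genes 0 were higher and 2 lower (median -0.08). Of 6 ceramide synthesis genes 2 were higher and 0 lower (median 0.02), and of 6 genes of sphingolipid use and turnover 2 were higher and 0 lower (median -0.12). The 12 sphingolipid genes together thus had 4 higher and 0 lower, with a median change of -0.07 and 5 changes above 0. The 19 phospholipid genes had 5 higher and 4 lower, with a median of -0.02 and 9 changes above 0. Among genes present on every array 19.7% were higher and 22.6% lower, and no set was tested against those shares.

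**Figure D1:**
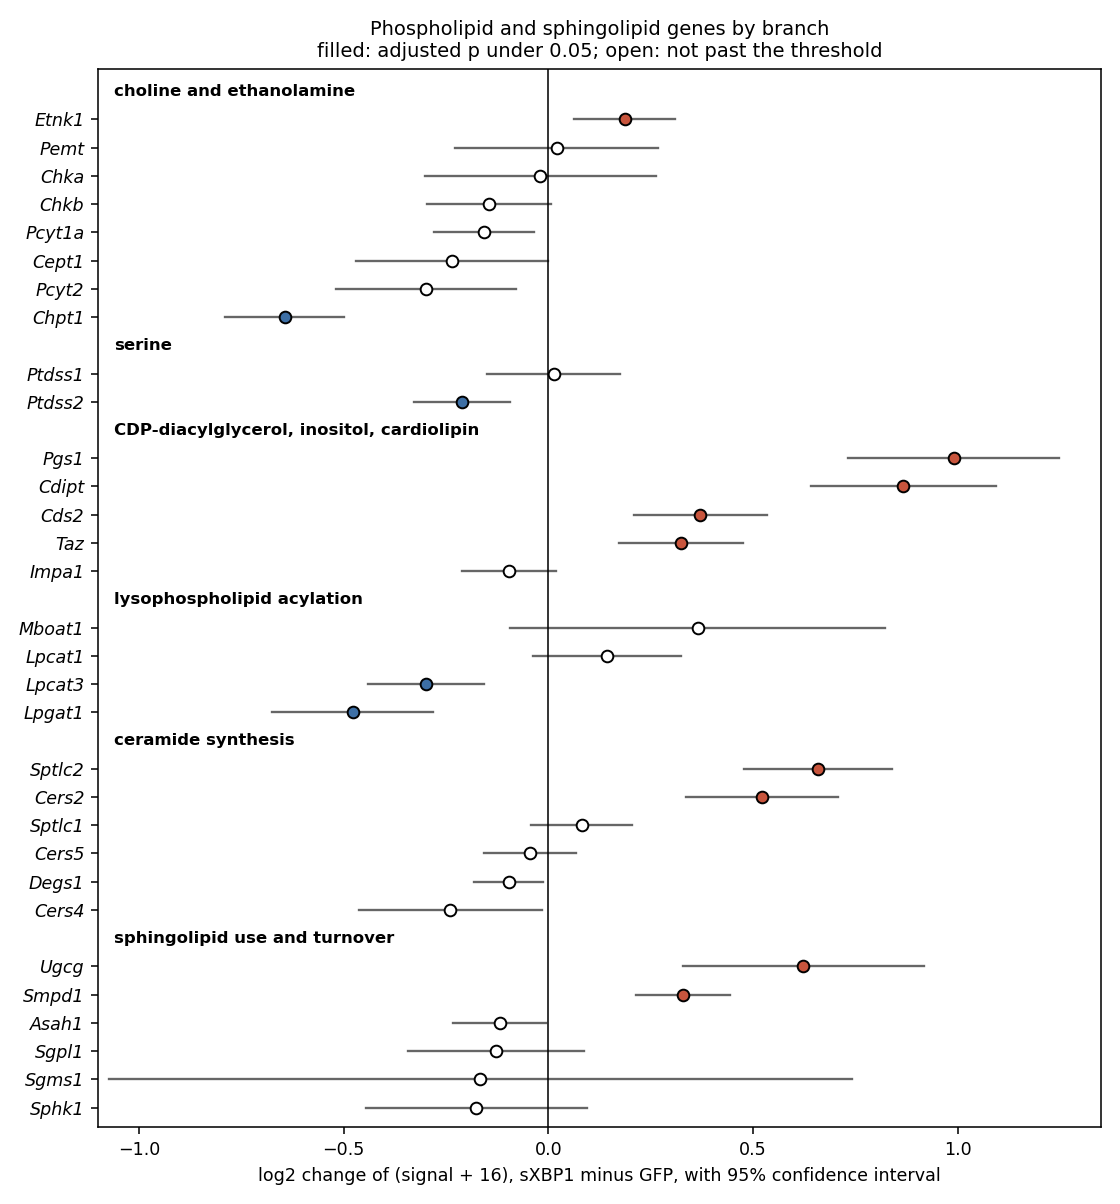
Log2 change of (signal + 16), sXBP1 minus GFP, for the 31 measured genes grouped by branch (points) with 95% confidence intervals (lines). Filled points passed an adjusted p of 0.05 (red higher, blue lower) and open points did not. Of the 9 filled points to the right, 4 are in the CDP-diacylglycerol branch, from 0.32 for Taz to 0.99 for Pgs1, and 4 are sphingolipid genes, from 0.33 for Smpd1 to 0.66 for Sptlc2, while Chpt1 at -0.64 lies farthest to the left.

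Promoter sequences were examined because XBP1 binds known elements. RefSeq windows (GRCm38.p6) of 250 bases before to 50 after the gene start were available for 26 of the 31 genes, 41 windows in all, and 5 motifs were searched on both strands. These were the core of the unfolded protein response element (TGACGTGG), its inner letters ACGTGG, the ER stress elements ERSE (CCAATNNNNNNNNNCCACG) and ERSE-II (ATTGG, any 1 base, then CCACG), and a sterol response element (TCACNCCAC). TGACGTGG was found in 1 of the 26 genes, Lpcat1, and in 0.714% of 27025 genes of the table. ACGTGG, which lies within it, was found in 4 of the 26 genes and in 9.39% of all, the sterol element in 1 gene (Pcyt1a) and in 1.44% of all, and ERSE and ERSE-II in 0 of the 26 and in 0.137% and 0.0444% of all. These shares count genes with a match in any window. Members had more windows per gene (41 for 26 genes, against 32851 for 27025), so the shares are not like for like. Counted per window, ACGTGG was in 8.31% of all. None of the 12 called members with a window held any of the 5 motifs there.

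Shown are 4 windows in lower case with matches in capitals: the member with the largest rise (Pgs1, chr11:117986607-117986906, plus strand), the one with the largest fall (Chpt1, chr10:88503921-88504220, minus strand), and the 2 uncalled members with a response element, Lpcat1 (chr13:73466981-73467280, plus strand; the element lies on the reverse strand from position -23 relative to the gene start) and Pcyt1a (chr16:32430671-32430970, plus strand; from position -116).
Pgs1: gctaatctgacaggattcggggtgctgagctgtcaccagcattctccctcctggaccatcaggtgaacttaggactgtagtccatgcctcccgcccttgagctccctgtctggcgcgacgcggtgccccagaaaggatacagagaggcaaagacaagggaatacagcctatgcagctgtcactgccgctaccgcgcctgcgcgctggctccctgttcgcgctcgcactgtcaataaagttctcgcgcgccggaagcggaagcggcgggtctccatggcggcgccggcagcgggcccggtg
Chpt1: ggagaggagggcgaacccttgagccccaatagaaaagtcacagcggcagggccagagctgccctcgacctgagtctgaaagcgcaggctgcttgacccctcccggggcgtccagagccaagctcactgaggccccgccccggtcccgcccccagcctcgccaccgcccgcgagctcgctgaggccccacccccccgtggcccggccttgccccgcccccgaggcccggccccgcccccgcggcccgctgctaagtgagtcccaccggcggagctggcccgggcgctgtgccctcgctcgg
Lpcat1: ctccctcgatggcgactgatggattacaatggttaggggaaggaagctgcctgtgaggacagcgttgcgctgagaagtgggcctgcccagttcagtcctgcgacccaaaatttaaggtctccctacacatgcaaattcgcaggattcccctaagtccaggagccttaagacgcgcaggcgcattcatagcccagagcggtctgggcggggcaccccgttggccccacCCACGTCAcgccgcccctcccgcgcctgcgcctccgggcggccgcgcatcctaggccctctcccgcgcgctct
Pcyt1a: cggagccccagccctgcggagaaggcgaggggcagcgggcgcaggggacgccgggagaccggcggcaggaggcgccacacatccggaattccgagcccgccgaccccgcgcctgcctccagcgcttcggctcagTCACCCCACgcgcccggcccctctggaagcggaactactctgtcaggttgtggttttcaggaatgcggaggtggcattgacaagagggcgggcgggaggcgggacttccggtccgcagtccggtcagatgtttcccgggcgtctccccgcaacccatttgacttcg
A match describes letters in this window, and no match says only that the letters are not in it.

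Genes that draw on CDP-diacylglycerol held the largest rises. Pgs1, the mitochondrial phosphatidylglycerophosphate synthase that commits CDP-diacylglycerol to cardiolipin, gave signals of 466, 427, 533 and 656 on sXBP1 arrays 1 to 4, against 257, 254, 298 and 277 on GFP arrays 1 to 4. Every sXBP1 array lay above every GFP array, and the arrays with the highest values were sXBP1 3 and 4. Pgs1 rose by 0.99 ± 0.12, a 1.99-fold change (95% confidence interval of the log2 change 0.73 to 1.25, limma adjusted p = 1.6e-04), and all 3 of its probe sets shared the call. The signals of Cdipt, the phosphatidylinositol synthase of the ER, were 3061, 3259, 4097 and 4651 on sXBP1 arrays against 2112, 2164, 1864 and 2176 on GFP arrays. The groups did not overlap, with the GFP arrays close together and sXBP1 arrays 3 and 4 highest again. Cdipt rose by 0.87 ± 0.10, or 1.82-fold (limma adjusted p = 1.6e-04), on both of its probe sets.

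In the ER, the CDP-diacylglycerol that Cdipt uses is made by a synthase that Cds2 encodes, while in mitochondria it is made by TAMM41, whose gene had a log2 change of -0.26 ± 0.11 and was not called (limma adjusted p = 0.105). The signals of Cds2 were 1016, 1027, 1116 and 1344 on sXBP1 arrays against 935, 923, 826 and 902 on GFP arrays. These groups were apart as well, by a smaller margin, and Cds2 rose by 0.37 ± 0.07 (limma adjusted p = 0.00375) on 3 of 5 probe sets; of the remaining probe sets, one was called present on no array. Taz, which encodes tafazzin, the transacylase that remodels cardiolipin, had signals of 829, 859.9, 700.0 and 848 on sXBP1 arrays against 597, 748, 694 and 683 on GFP arrays. The deposited signals overlapped, since sXBP1 array 3 lay below GFP array 2, but the normalized values did not. Taz rose by 0.32 ± 0.07 (limma adjusted p = 0.00575) and did not pass with signals as deposited (0.24, limma adjusted p = 0.089). Impa1, an inositol monophosphatase that supplies free inositol, had a log2 change of -0.10 ± 0.05 (limma adjusted p = 0.22), whereas its other probe set passed as lower at -0.20. The representative probe sets of Pgs1 and Cds2 are of a class (suffix x) that can bind related transcripts, but probe sets of other classes shared the call for both genes.

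**Figure D2:**
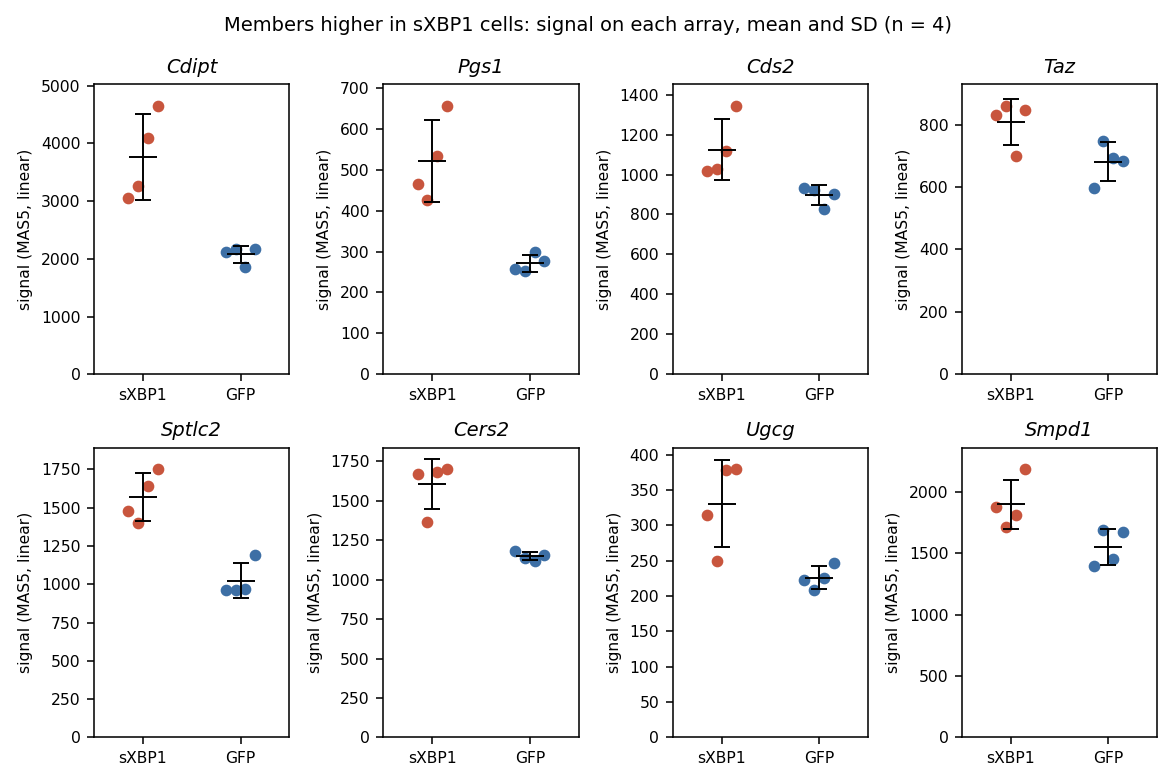
Deposited linear signal of 8 of the 9 members that were higher in sXBP1 cells, on 4 sXBP1 arrays (red, left) and 4 GFP arrays (blue, right), with the mean and SD in black. For Cdipt, Pgs1, Cds2, Sptlc2, Cers2, Ugcg and Smpd1 all 4 sXBP1 arrays lie above the 4 GFP arrays, and for Taz 1 sXBP1 array at 700.0 lies below the highest GFP array at 748.

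In the choline and ethanolamine branch the largest change was a fall at the last step. Chpt1, the cholinephosphotransferase that completes phosphatidylcholine, gave 773, 915, 706 and 851 on sXBP1 arrays against 1251, 1389.5, 1288 and 1377 on GFP arrays. The groups were far apart relative to their spread. Chpt1 fell by 0.64 ± 0.07 on the log2 scale, to 0.64 of the GFP level (95% confidence interval -0.79 to -0.50, limma adjusted p = 6.6e-05), and all 4 probe sets shared the call, at -0.43 to -0.75. Cept1, the ER enzyme that transfers either choline or ethanolamine, had a log2 change of -0.24 ± 0.10 and did not pass (limma adjusted p = 0.142).

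The enzymes that activate choline and ethanolamine were not called on their representative probe sets, apart from Etnk1. Pcyt1a, the phosphocholine cytidylyl transferase that sets the rate of the choline route, had signals of 486, 509, 484 and 550.1 on sXBP1 arrays against 575, 662, 592 and 578 on GFP arrays. Although these groups did not overlap, the change was -0.16 ± 0.06 and did not pass (limma adjusted p = 0.0631), while 1 of its other 3 probe sets passed as lower at -0.23. Pcyt2, its counterpart for ethanolamine, showed -0.30 ± 0.10 on the log2 scale (limma adjusted p = 0.0519). The choline kinases Chka and Chkb had log2 changes of -0.02 ± 0.13 and -0.14 ± 0.07, and Pemt, which methylates phosphatidylethanolamine to phosphatidylcholine, one of 0.02 ± 0.11 (limma adjusted p = 0.167 to 0.939 for the 3 genes). Etnk1, an ethanolamine kinase, gave 1037, 1079, 1020.0 and 1112 on sXBP1 arrays against 912, 1119.7, 946 and 929 on GFP arrays. Its groups overlapped as deposited, through GFP array 2, and were apart after normalization. Etnk1 rose by 0.19 ± 0.06 (limma adjusted p = 0.0339) on 1 of 3 probe sets. It did not pass with signals as deposited (0.12, limma adjusted p = 0.32). Nor did Etnk1 pass without a trend in the variance, or without sXBP1 replicate 1, 2 or 3 or GFP replicate 1, 3 or 4. In those settings its change was 0.15 to 0.19 (limma adjusted p = 0.0629 to 0.0988).

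Phosphatidylserine is made by exchange of the head group of phosphatidylcholine or phosphatidylethanolamine. Ptdss2, the synthase that uses phosphatidylethanolamine, had signals of 1467, 1508, 1283 and 1529 on sXBP1 arrays against 1657, 1820.4, 1647 and 1761 on GFP arrays. All sXBP1 arrays were below all GFP arrays, and Ptdss2 fell by 0.21 ± 0.05 (limma adjusted p = 0.0143), on 2 of 7 probe sets. The remaining probe sets were not called and had log2 changes of -0.57 to 0.25, including 0.13 on a probe set called present on every array. The call was lost after median centring (-0.11, limma adjusted p = 0.135), without a trend in the variance (limma adjusted p = 0.0583) and with the mean of all probe sets (-0.17, limma adjusted p = 0.143). Ptdss1, the synthase that uses phosphatidylcholine, gave 1296, 1234, 1239 and 1185 on sXBP1 arrays against 1272, 1311, 1172 and 1313 on GFP arrays. Those values intermingled, with a change of 0.01 ± 0.07 (limma adjusted p = 0.927).

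Lysophospholipid acyltransferases exchange the acyl chains of finished phospholipids. Lpcat3, which places polyunsaturated chains into phosphatidylcholine, gave 3004, 2982, 2798 and 2766 on sXBP1 arrays against 3384, 3869, 3548 and 3803 on GFP arrays. The sXBP1 arrays were all lower, and Lpcat3 fell by 0.30 ± 0.06 (limma adjusted p = 0.00621), or by 0.19 after median centring. Lpgat1, a lysophosphatidylglycerol acyltransferase, had signals of 3874, 3788, 2958 and 3402 on sXBP1 arrays against 4627, 4954, 5307 and 5004 on GFP arrays. This was a clear separation on the brightest probe set, where Lpgat1 fell by 0.48 ± 0.09 (limma adjusted p = 0.00266). Only 2 of its 4 probe sets were called, the other 2 having log2 changes of -0.06 and -0.10, and with the mean of all probe sets it did not pass (-0.23, limma adjusted p = 0.0612). Lpcat1, which favours saturated chains and is known from lung surfactant, showed 0.14 ± 0.08 on the log2 scale (limma adjusted p = 0.257). The other Lpcat1 probe sets had log2 changes of -0.055 and -0.031 and were not called. Mboat1 was dim, at 41.3 to 69.6 on sXBP1 arrays and 31.4 to 64.9 on GFP arrays, and was called present on 2 sXBP1 arrays and 0 GFP arrays.

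**Figure D3:**
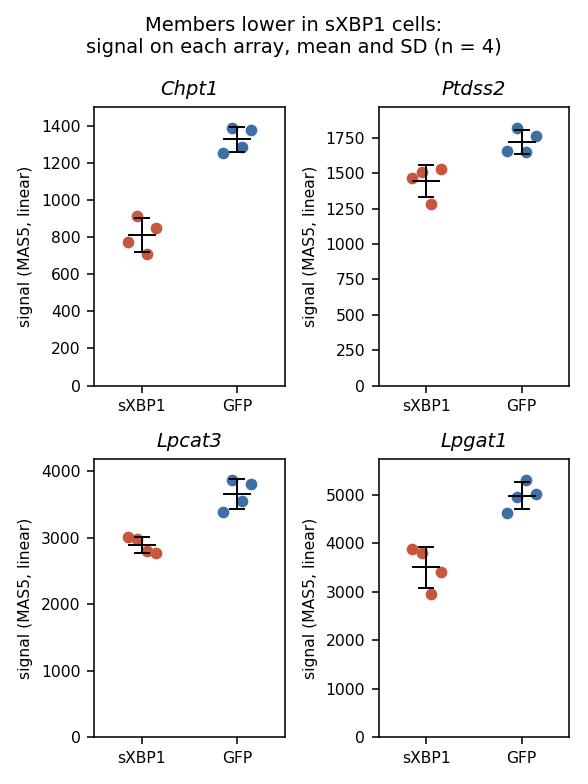
Deposited linear signal of the 4 members that were lower in sXBP1 cells, on 4 sXBP1 arrays (red, left) and 4 GFP arrays (blue, right), with the mean and SD in black. The groups do not overlap for any of the 4, and the gap is widest relative to the level for Chpt1, with sXBP1 arrays at 706 to 915 and GFP arrays at 1251 to 1389.5.

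Sphingolipid synthesis starts with serine palmitoyltransferase, a complex of the subunits SPTLC1 and SPTLC2. Sptlc2 gave signals of 1477, 1403, 1640.4 and 1751 on sXBP1 arrays against 960.1, 966, 971 and 1193 on GFP arrays. Each sXBP1 array exceeded each GFP array, and Sptlc2 rose by 0.66 ± 0.08, or 1.58-fold (95% confidence interval 0.48 to 0.84, limma adjusted p = 2.3e-04). Sptlc2 had 1 probe set, as had Cers2, Smpd1, Taz and Lpcat3, so no other probe set checks these calls. Sptlc1 had signals of 607, 644, 595 and 637 on sXBP1 arrays against 569, 654, 620.2 and 644 on GFP arrays. Its groups overlapped and its change was 0.08 ± 0.06 (limma adjusted p = 0.354), with none of its 4 probe sets called.

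Ceramide synthases attach the second acyl chain, each with its own range of chain lengths. Cers2, the synthase for very long chains, gave 1666, 1367, 1682 and 1699 on sXBP1 arrays against 1178, 1137, 1117 and 1153 on GFP arrays. The GFP arrays were within a narrow band below all sXBP1 arrays, and Cers2 rose by 0.52 ± 0.08 (1.44-fold, limma adjusted p = 0.00117). Cers4 had a log2 change of -0.24 ± 0.10 (limma adjusted p = 0.12), while 1 of its other 2 probe sets passed as lower at -0.51. Cers5, a synthase for shorter chains, showed -0.04 ± 0.05 on that scale (limma adjusted p = 0.61). Degs1, the desaturase that turns dihydroceramide into ceramide, showed -0.10 ± 0.04 on the log2 scale (limma adjusted p = 0.0972).

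Past ceramide, both called genes were higher. Ugcg, glucosylceramide synthase and so the entry to glycosphingolipids, had signals of 314, 249.7, 378 and 379 on sXBP1 arrays against 223, 209, 226 and 247 on GFP arrays. The lowest sXBP1 array exceeded the highest GFP array only narrowly, and sXBP1 arrays 3 and 4 were highest. Ugcg rose by 0.62 ± 0.13 (limma adjusted p = 0.00604) on 2 of 3 probe sets. Smpd1, the lysosomal acid sphingomyelinase that returns sphingomyelin to ceramide, gave 1880.2, 1719.5, 1812 and 2186 on sXBP1 arrays against 1399.7, 1689, 1454 and 1671 on GFP arrays. Its groups were apart, and Smpd1 rose by 0.33 ± 0.05 (1.26-fold, limma adjusted p = 0.00101).

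Among the members, the enzymes that break ceramide and sphingosine down were not called. Outside the members, the ceramidase genes Asah2 and Acer2 were lower, at -0.31 and -0.57 (limma adjusted p = 0.00394 and 0.0224), each on 1 of 2 probe sets. Of all 32 other sphingolipid genes measured, 3 were higher, among them Cerk at 0.70 and Sgpp1 at 0.29, and 7 were lower. Asah1, acid ceramidase, gave 2356, 2530.3, 2439.6 and 2540.2 on sXBP1 arrays against 2715, 2829, 2709.9 and 2749.5 on GFP arrays, and its log2 change was -0.12 ± 0.05 (limma adjusted p = 0.129) although the groups did not overlap. The sphingosine-1-phosphate lyase gene Sgpl1 had a log2 change of -0.13 ± 0.10 and the sphingosine kinase gene Sphk1 one of -0.18 ± 0.12 (limma adjusted p = 0.414 and 0.362). Sgms1, a sphingomyelin synthase of the Golgi, showed -0.17 ± 0.41 on the log2 scale (limma adjusted p = 0.83), the widest error among the members.

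Some listed genes encode enzymes of the same step, enzymes of parallel steps, or subunits of the same complex (Sptlc1 and Sptlc2). Of these, 14 pairs were listed, and the 9 with both genes measured were compared within each array. For each pair, the log2 difference between the genes on sXBP1 arrays was set against that on GFP arrays by a two-sided exact permutation test, whose smallest possible p with 4 against 4 arrays is 0.0286. Of the 9 pairs, 6 reached that value and had an adjusted p of 0.0429 (exact permutation, Benjamini-Hochberg over 9 pairs). This adjusted p is shared by the 6 and would be higher had fewer pairs reached the smallest p. It is therefore not separate evidence for each pair, and Cers2 enters both against Cers4 and against Cers5. Intervals below are 95% confidence intervals from limma on the same differences. They have the same width for every pair, since limma pooled the variance over the 9 pairs, and do not measure a pair's own spread.

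The change of Sptlc1 minus that of Sptlc2 was -0.58 on the log2 scale (interval -0.82 to -0.33). The change of Cers2 exceeded that of Cers4 by 0.76 (0.52 to 1.01) and that of Cers5 by 0.57 (0.32 to 0.81). For Lpcat1 it exceeded that of Lpcat3 by 0.44 (0.20 to 0.69), and for Cept1 that of Chpt1 by 0.41 (0.16 to 0.65). The Lpcat1 value rests on its brightest probe set, which had the highest change among the probe sets of that gene. In each of these 5 pairs the sXBP1 and GFP arrays did not overlap. Ptdss1 against Ptdss2 differed by 0.22 with arrays apart, but its limma interval, of that shared width, was -0.02 to 0.47. For Chka against Chkb the difference was 0.12 (interval -0.12 to 0.37), for Pcyt1a against Pcyt2 0.14 (-0.10 to 0.39) and for Cers4 against Cers5 -0.19 (-0.44 to 0.05), with arrays overlapping in all 3 pairs (exact permutation adjusted p = 0.147 to 0.371). A difference within a pair shows unequal change and does not say which gene moved.

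**Figure D4:**
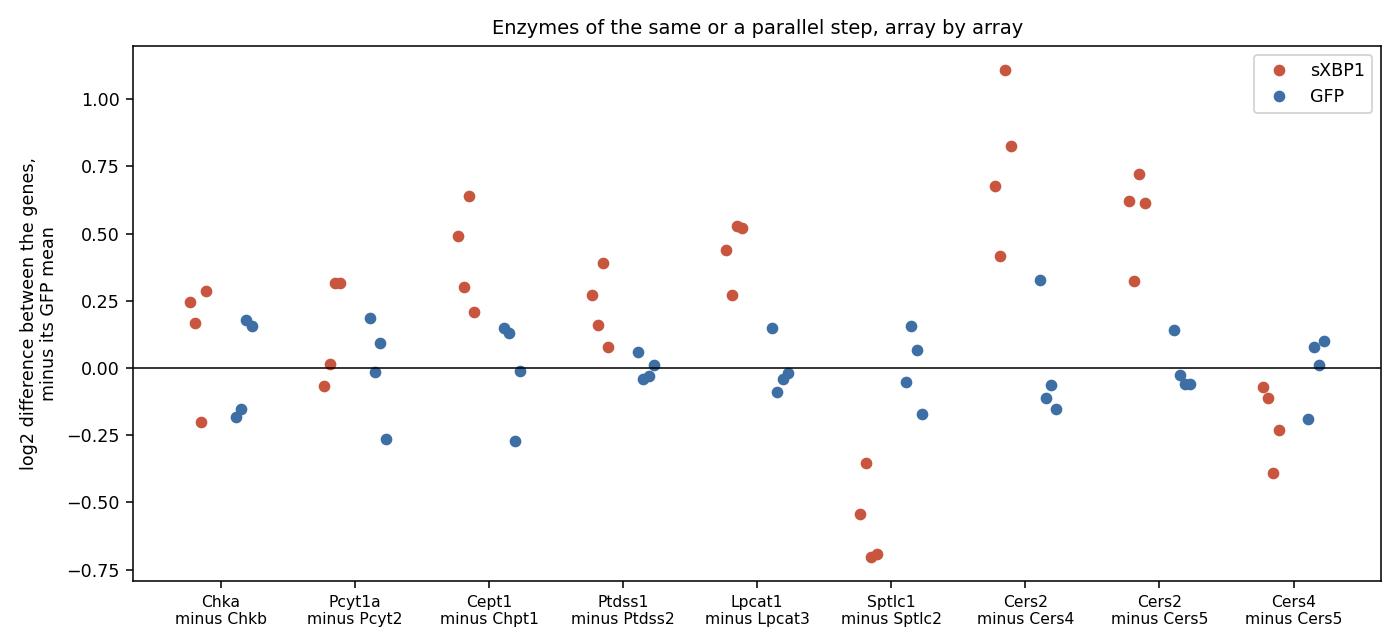
For 9 pairs of genes of the same step, a parallel step or the same complex, the log2 difference between the genes on each array minus the mean of that difference on GFP arrays, for 4 sXBP1 arrays (red, left) and 4 GFP arrays (blue, right). The sXBP1 arrays lie apart from the GFP arrays in 6 pairs, most for Cers2 minus Cers4 with a mean of 0.76, and overlap them in 3.

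Further genes of lipid handling gave a mixed picture. Of 29 other measured phospholipid genes 4 were higher and 4 lower (median change 0.03), and of 32 other sphingolipid genes 3 were higher and 7 lower (median -0.03). Together 29.5% were called, against 27.3% of all genes, and 40.0% of the 45 present on every array, against 42.3% of all genes so detected, so both shares were near the background. The higher genes of both lists together numbered 7, and 3 with signals as deposited. Past the threshold with a log2 change of at least 0.5 were 6 genes. Gpcpd1, which releases choline phosphate or choline from glycerophosphocholine, gave 1441, 1490.2, 1143 and 1442 on sXBP1 arrays against 2305, 2579.7, 2201 and 2544 on GFP arrays, and fell by 0.77 ± 0.07 (limma adjusted p = 4.9e-05). Gde1, another glycerophosphodiesterase, gave 1713, 1706, 2134 and 2413 on sXBP1 arrays against 1203, 1412, 1266 and 1398 on GFP arrays, and rose by 0.63 ± 0.08 (limma adjusted p = 3.1e-04). These 2 enzymes of related chemistry thus moved in opposite directions, with no overlap between groups in either.

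Among the sphingolipid genes, Gla, the lysosomal alpha-galactosidase, rose by 0.81 ± 0.14 on both probe sets (631 ± 186 on sXBP1 arrays and 366 ± 12.7 on GFP arrays, SD, n = 4 each, limma adjusted p = 0.00192). Cerk, ceramide kinase, rose by 0.70 ± 0.12 (217 ± 27.3 on sXBP1 arrays and 142 ± 14.7 on GFP arrays, limma adjusted p = 0.0013). Cert1, the protein that carries ceramide from the ER to the Golgi for sphingomyelin synthesis, fell by 0.52 ± 0.12 on 1 of 3 probe sets (121 ± 10.6 on sXBP1 arrays and 202 ± 21.4 on GFP arrays, limma adjusted p = 0.00722). Acer2, a Golgi ceramidase, fell by 0.57 ± 0.16 on 1 of 2 probe sets (67.4 ± 16.3 on sXBP1 arrays and 117 ± 8.41 on GFP arrays, limma adjusted p = 0.0224).

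Most of the 31 genes were bright, with a median mean signal of 1011 against 192 for all genes, although Mboat1 and Sphk1 were below 192. In the authors' deposited table all 31 representative probe sets were listed, and the deposited fold had the same direction as the limma change for 13 of the 13 called members. Both come from the same arrays.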

How the data were processed

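Gene lists, members and tests were chosen with earlier results of these data known. Per the submitters' processing notes, MAS5 produced the intensity of each probe set that the authors deposited on a linear scale. The software version is not given here, and no scaling target is. A second deposited table repeats these signals with detection calls, with a fold (ratio of means) and with a score that is an unequal-variance statistic; neither entered a test. Arrays limit precision by their number, 4 per group from the sample titles.

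Here 64 control probe sets were left out and 22626 tested. Trimmed means (2% off each end) differed by more than a ratio of 1.05 between arrays, so log2(signal + 16) was quantile normalized. On that scale a change in a dim gene is understated. The comparison used limma 3.58.1 under R 4.3.3 (trend, two-sided, Benjamini-Hochberg over all tested probe sets, threshold 0.05), after a check on simulated data. Symbols came from the platform annotation: 20380 probe sets had 1 symbol, 691 several and 1555 none.

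Named were all members past the threshold and the 2 members with the smallest p in each branch. Other pathway genes were named if past the threshold with a log2 change of at least 0.5. Remaining members are given so that each is accounted for, and Tamm41, Asah2 and Sgpp1 are given beside members of related steps. Alternatives in scaling, pseudocount, detection filter, variance trend, probe set choice, test and arrays left out are given in the closing section.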

Additional observations from a re-analysis of the deposited data

Results flagged for a closer look

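Among 62 groups of 4 arrays (31 genes, sXBP1 and GFP), 5 had 1 array set off from its other 3 by a share of the group's range above Dixon's 95% critical value, and chance gives such a gap in about 1 of 20 groups. Values are normalized log2 signals. For Cept1, sXBP1 array 4 was lowest at 10.16 against 10.49 to 10.54. For Impa1, sXBP1 array 3 was highest at 10.08 against 9.91 to 9.93. For Pcyt1a, GFP array 4 was lowest at 9.14 against 9.26 to 9.27. For Cds2, GFP array 1 was highest at 9.97 against 9.73 to 9.76. For Ugcg, GFP array 2 was lowest at 7.64 against 7.90 to 7.93.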

How the results depend on the processing

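Of the 13 called members, 9 kept their call in all 16 limma alternatives, and the exceptions (Etnk1, Taz, Ptdss2 and Lpgat1) are given with their results; 0 of the 13 reversed. Counting also the unequal-variance statistic on linear signals, 3 of the 13 kept the call throughout (Chpt1, Lpcat3 and Sptlc2). With that statistic, which gave 547 higher probe sets in all against 2601 with limma, members higher numbered 1, other pathway genes higher 0 (2 at an unadjusted p under 0.05; limma gave 7) and other pathway genes lower 5 against 11. The median member change was -0.12 as deposited and 0.02 after median centring, so its sign depends on scaling. Other pathway genes higher numbered 3 as deposited and 3 without a trend, and 3 to 8 when 1 array was left out, with 4 without sXBP1 replicate 3, sXBP1 replicate 4, GFP replicate 2 or GFP replicate 4, and 3 without GFP replicate 3. Xbp1 passed after median centring (0.21, limma adjusted p = 0.0307). The cause of these differences was not tested. Deviations of same-numbered arrays correlated at -0.09 to 0.12 across brighter probe sets, above 0.1 for numbers 1 and 4 only, which were the highest of the 16 combinations, and not every array correlated best with its own number. The numbers were therefore not taken to pair the arrays. With the replicate block 9 members were higher and 4 lower, as without it. For pairs, a paired sign-flip test gave 0 of 9 past the threshold and 0 at an unadjusted p under 0.05, since its smallest p is 0.125, while limma on the differences gave 5. Differences of pairs kept their sign without any 1 array, an alternative added after seeing the data. Mboat1 was near the detection limit.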

Other observations

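Sgms1, singled out after its values were seen, was low on the arrays numbered 1 in both groups. Its brightest probe set gave 179, 612, 531 and 449.8 on sXBP1 arrays 1 to 4 against 213, 706, 668 and 567 on GFP arrays 1 to 4. Its other probe set gave 178 to 241 on sXBP1 arrays and 214.5 to 282 on GFP arrays and had a log2 change of -0.08 (limma adjusted p = 0.615). By a rule set after this was noticed, probe sets brighter than the median were searched for any on which both same-numbered arrays lay at least 1 on the log2 scale below all other arrays of their group. Of 11313 probe sets, 3 met it for number 1 (of Sgms1, Psmb4 and Becn1) and 0 for numbers 2, 3 and 4. Sgms1 itself prompted the rule, so its own count is not separate support. With both arrays higher by at least 1 instead, 0 probe sets were found for any number.

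Among called members, the median deviation from the GFP mean was 0.59, 0.32, 0.67 and 0.49 on sXBP1 arrays 1 to 4 for those higher, and -0.23, -0.29, -0.48 and -0.58 for those lower. The array with the largest median deviation was thus array 3 for those higher and array 4 for those lower. Single genes varied. Among the higher ones Taz was largest on array 2 (0.43) and Pgs1 on array 4 (1.21), and the lower gene Chpt1 was farthest on array 3 (-0.76).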
